A study of Rattus norvegicus with 9 samples.

Results

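The expression of 10 genes of the endoplasmic reticulum (ER) stress response, Hspa5, Hsp90b1, Pdia4, Dnajb9, Herpud1, Xbp1, Atf4, Atf3, Ddit3 and Trib3, was examined in normal, fibrotic and tormentic acid (TA) treated rat livers. The genes were taken by symbol from the deposited tables, which name 17156 genes, and all 10 were found and passed the filter on low counts in every comparison. The 9 livers came from male Sprague–Dawley rats whose age is not given, with 3 livers each from a normal control group (labelled wt, given saline), a model group and a TA group. Fibrosis was induced in the latter groups by 2 ml/kg of a 50% CCl4 oil solution, given into the stomach over 9 weeks, and 3.0 mg/kg TA was then given to the TA rats over 6 weeks. CCl4 is a hepatotoxin that is made reactive by hepatocyte cytochrome P450 enzymes and produces scarring when given repeatedly, and TA is a triterpenoid from the herb Potentilla chinensis. All rats were fasted for 12 h before the livers were taken. The labels call the model and TA tissue hepatitis stage liver and give the TA libraries no dose of their own. They do not state whether replicates came from separate animals. The p-values therefore measure the spread between these 9 libraries only, each of which is called a liver here. The comparisons were Model VS Normal, TA VS Model and TA VS Normal, and because each group served in a pair of them, they are not independent of each other.

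The ER folds secreted and membrane proteins, a load that is high in hepatocytes, which make most plasma proteins. When unfolded proteins build up there, a trio of membrane sensors starts the unfolded protein response. IRE1 splices the Xbp1 mRNA so that it encodes an active transcription factor, ATF6 is cut to release another, and both raise chaperones and degradation factors. PERK phosphorylates eIF2 alpha, which slows protein synthesis in general but favours translation of ATF4, and ATF4 in turn raises Atf3, Ddit3 (CHOP) and Trib3. The same ATF4 arm is also reached from amino acid shortage and other stresses, as the integrated stress response. Counts per gene do not tell the spliced Xbp1 mRNA from the unspliced form and do not measure translation of Atf4.

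The promoter windows of these genes are given here because some of them hold the exact letters of known ER stress motifs and others do not. Of the 10 genes, 9 matched an entry of the rat RefSeq promoters (assembly GRCr8), and Atf3 did not. Letter patterns of the known response elements were searched on both strands of the 250 bases before each annotated start. They were the ER stress response element (ERSE, which is CCAAT and CCACG with any 9 bases between), ERSE-II (ATTGG and CCACG with any 1 base between), the core of the unfolded protein response element (TGACGTGG), the core of the C/EBP-ATF response element (TGATGCAA) and the cyclic AMP response element (TGACGTCA). Of 33469 rat promoter windows of this length, 0.0657% held an ERSE, 0.0418% an ERSE-II, 0.520% the unfolded protein response core, 0.693% the C/EBP-ATF core and 1.59% the cyclic AMP element. The 4 windows with a match are printed 5′ to 3′ on the strand of the gene, with the matched letters in capitals. They lie at chr3:38452766-38453015 (plus strand) for Hspa5, chr7:23012294-23012543 (minus strand) for Hsp90b1, chr19:10614708-10614957 (minus strand) for Herpud1 and chr14:84604373-84604622 (plus strand) for Xbp1.
Hspa5: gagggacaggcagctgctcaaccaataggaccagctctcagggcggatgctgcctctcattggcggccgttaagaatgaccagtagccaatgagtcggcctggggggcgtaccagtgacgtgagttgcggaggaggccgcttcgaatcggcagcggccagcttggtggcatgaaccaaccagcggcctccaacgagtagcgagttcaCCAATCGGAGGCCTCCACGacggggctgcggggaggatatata
Hsp90b1: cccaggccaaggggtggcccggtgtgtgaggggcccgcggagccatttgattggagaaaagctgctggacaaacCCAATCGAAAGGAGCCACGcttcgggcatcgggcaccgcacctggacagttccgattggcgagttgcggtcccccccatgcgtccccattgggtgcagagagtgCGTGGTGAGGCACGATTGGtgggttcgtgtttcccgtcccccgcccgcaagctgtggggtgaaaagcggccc
Herpud1: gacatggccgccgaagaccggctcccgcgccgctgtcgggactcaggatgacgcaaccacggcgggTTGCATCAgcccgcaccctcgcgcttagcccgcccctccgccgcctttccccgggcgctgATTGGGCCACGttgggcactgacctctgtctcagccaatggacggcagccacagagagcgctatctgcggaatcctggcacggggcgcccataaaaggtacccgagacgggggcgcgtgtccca
Xbp1: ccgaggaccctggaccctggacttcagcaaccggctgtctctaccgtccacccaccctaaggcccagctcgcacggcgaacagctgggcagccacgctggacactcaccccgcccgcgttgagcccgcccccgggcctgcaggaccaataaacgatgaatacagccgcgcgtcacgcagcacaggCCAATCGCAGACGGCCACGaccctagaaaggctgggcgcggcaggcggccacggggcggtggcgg
Hspa5 held an ERSE 43 to 25 bases before the start. Hsp90b1 held a pair of them, at 176 to 158 bases on the gene's strand and at 72 to 54 bases on the opposite strand. The window of Xbp1 held an ERSE 65 to 47 bases before the start. Herpud1 held an ERSE-II at 124 to 114 bases, and a C/EBP-ATF core on the opposite strand at 184 to 177 bases. The searched letters were not in the windows of Pdia4, Dnajb9, Atf4, Ddit3 and Trib3. Only exact letters were counted, so that a window without a match may still hold a variant of a motif. That of Ddit3 holds letters that differ by 1 from an ERSE on the opposite strand. Those of Trib3 and Dnajb9 hold letters that differ by 1 from the C/EBP-ATF core and from the unfolded protein response core. Such near matches were not counted over all windows. No match overlapped another, and a match is a description of the letters and not of binding.

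Between 13156735 and 18090405 reads were counted per liver, and values below are CPM, each gene's counts relative to the scaled size of its library, after TMM normalization, which scales each library so that most genes stay level, unless a sentence says FPKM. The first model liver stood apart. Its 50 most abundant genes took 27.9% of the counts against 40.4% to 45.7% in the other livers, its TMM factor was 1.69 against 0.816 to 1.16, its summed hepatocyte markers reached 37200 CPM against 106000 to 191000, and its stellate cell and myofibroblast markers reached 13000 CPM against 193 to 1470 CPM. The leading markers of those lists were Alb and Col3a1. All 10 hepatocyte markers were found in both deposited tables, and 9 of 10 stellate cell and myofibroblast markers, Col1a2 being absent. No marker found there, of any list, was at 0 in all livers. In whole liver, fewer cells of a type and less RNA per cell cannot be told apart. Where library totals were used in place of TMM, the median of all genes moved from 0.02 to 0.65 on the log2 scale in Model VS Normal, from 0.00 to -0.48 in TA VS Model and from -0.01 to 0.18 in TA VS Normal, and directions that turn with this choice are named below.

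**Figure D1:**
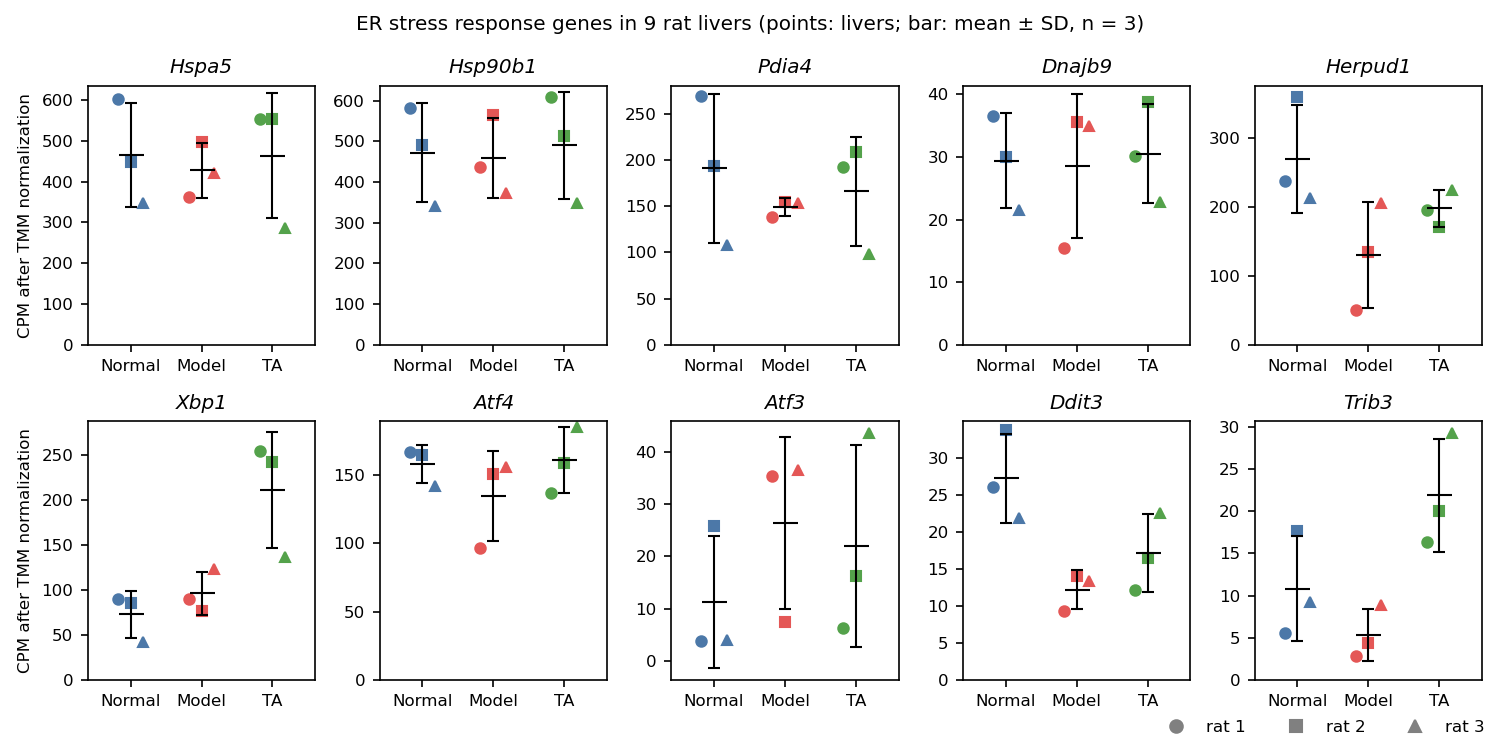
Levels of the 10 genes in each liver, in CPM after TMM normalization, by group (points: livers, shaped by replicate number, marked rat, and bars: mean ± SD, n = 3). Ddit3 and Herpud1 lay lower in all 3 model livers than in all 3 normal livers, and Xbp1 and Trib3 lay higher in all 3 TA livers than in all 3 model livers, while the chaperone genes overlapped across the groups.

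The chaperones and folding enzymes of the ER came first by role, and none of the 4 differed between groups beyond the spread between livers. Hspa5 encodes BiP, the main Hsp70 chaperone of the ER, which also holds the sensors inactive. It stood at 602, 448 and 348 CPM in the normal livers, 363, 498 and 422 CPM in the model livers and 553, 553 and 287 CPM in the TA livers. Group means were 466 ± 128, 428 ± 67.5 and 464 ± 154 CPM (SD, n = 3), and every group held a liver above 490 CPM beside livers that were lower. The log2 fold change of Hspa5 was -0.12 (95% interval -0.96 to 0.72) for Model VS Normal and 0.12 (-0.81 to 1.05) for TA VS Model, with edgeR adjusted p-values of 0.850 and 0.897.

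Hsp90b1 encodes GRP94, the Hsp90 chaperone of the ER. Its levels were 583, 492 and 341 CPM in normal, 438, 565 and 373 CPM in model and 608, 514 and 348 CPM in TA livers, which overlap throughout. Its log2 fold changes were -0.04 (95% interval -0.90 to 0.83) for Model VS Normal, 0.10 (-0.81 to 1.00) for TA VS Model and 0.02 (-0.63 to 0.68) for TA VS Normal. Pdia4 encodes ERp72, a protein disulfide isomerase. It measured 269, 194 and 108 CPM in normal livers, 138, 155 and 153 CPM in model livers and 192, 209 and 98.6 CPM in TA livers. The model livers of Pdia4 lay close together, inside the wider range of either other group. Dnajb9 (ERdj4) is an Hsp40 co-chaperone of BiP. It stood at 36.6, 30.0 and 21.5 CPM in normal, 15.4, 35.6 and 34.9 CPM in model and 30.1, 38.7 and 22.8 CPM in TA livers. Its lowest value was that of the first model liver, and the other 8 livers shared a range from 21.5 to 38.7 CPM.

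Over these 4 genes the log2 fold changes lay between -0.36 and 0.17 in the 3 comparisons, with edgeR adjusted p-values from 0.546 to 0.995. Small as they are, their directions depended on scaling. With library totals, the Model VS Normal values became 0.47 for Hspa5, 0.58 for Hsp90b1, 0.25 for Pdia4 and 0.49 for Dnajb9, all still below the shift of 0.65 in the median of all genes, and the TA VS Model values became -0.32, -0.37, -0.29 and -0.28. The widest interval of the 4 in TA VS Model still allows a change of 2.07-fold up for Hspa5 or a level of 0.571 of the model level, so that smaller changes were not detectable with 3 livers a group. The chaperone genes varied alike from liver to liver. In both the normal and the TA group, Hspa5, Hsp90b1, Pdia4 and Dnajb9 were each lowest in the third liver. Over the 9 livers, Pearson's r of log2 CPM with Hspa5 was 0.930 for Pdia4, 0.886 for Hsp90b1 and 0.750 for Dnajb9. It was 0.162 for Herpud1, 0.375 for Xbp1, 0.094 for Atf4, -0.019 for Ddit3, -0.134 for Trib3 and -0.533 for Atf3. Among 12997 genes compared, Ociad2 (0.958), Api5 (0.953) and Pex2 (0.945) had the profiles most like that of Hspa5. These coefficients are descriptions over 9 livers that share 3 groups and their library scaling.

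Herpud1, an ER membrane protein that helps assemble the machinery of ER-associated degradation (ERAD), was lower in the model livers without passing the adjusted threshold. It stood at 238, 360 and 213 CPM in normal livers, 50.9, 134 and 205 CPM in model livers and 196, 171 and 225 CPM in TA livers. All 3 model livers lay below all 3 normal livers, the first model liver by the widest margin, and the TA livers overlapped both other groups. Means of the normal, model and TA livers were 270 ± 78.4, 130 ± 77.2 and 198 ± 26.9 CPM (SD, n = 3). In Model VS Normal the log2 fold change was -1.05 (SE 0.51, edgeR adjusted p = 0.210), and it was -0.70 without the first model liver. For TA VS Model the log2 fold change was 0.61 (SE 0.48) with an edgeR adjusted p of 0.536.

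The transcription factors followed different patterns, and Xbp1 and Ddit3 were those whose groups separated. Xbp1, whose window above holds an ERSE, stood at 90.3, 85.6 and 42.6 CPM in normal livers, 89.7, 76.1 and 123 CPM in model livers and 254, 242 and 137 CPM in TA livers. The lowest TA liver was above the highest model liver and above every normal liver, while model and normal livers overlapped. Group means were 72.8 ± 26.2, 96.2 ± 24.1 and 211 ± 64.5 CPM (SD, n = 3). In TA VS Model, Xbp1 was 2.20 times the model level (95% interval 1.23 to 3.91, log2 fold change 1.13, SE 0.36), with an unadjusted p of 0.0139 from edgeR's fit that did not pass after adjustment over all genes (adjusted p = 0.262). In TA VS Normal it was 2.84 times the normal level (1.62 to 4.97, log2 fold change 1.50, SE 0.35), with an edgeR adjusted p of 0.151. With the replicate number as a block the TA VS Normal value was 1.53 with an edgeR adjusted p of 0.00540. The labels do not state that animals were paired. The pairing was read from these same data, where same-numbered TA and normal livers deviated together, so that this value adds no support. Model VS Normal gave Xbp1 a log2 fold change of 0.41 (SE 0.35), and 1.00 with library totals.

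Xbp1 is also needed by plasma cells, so the summed markers of plasma and B cells were set beside it. They reached 161 to 199 CPM in normal livers, 66.3, 815 and 791 CPM in the 3 model livers and 350 to 583 CPM in TA livers, and Ighm led the list. In the model livers with sums of 815 and 791 CPM, Xbp1 stood at 76.1 and 123 CPM. The summed hepatocyte markers were 115000 to 191000 CPM in TA, 135000 to 172000 in normal and 37200 to 117000 in model livers. The part of these cell types in the Xbp1 values was not tested.

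Atf4, the factor through which the PERK arm acts, did not differ between groups beyond the spread between livers. It stood at 167, 165 and 142 CPM in normal, 96.7, 151 and 156 CPM in model and 137, 159 and 185 CPM in TA livers, and all groups overlapped, the first model liver being the lowest. Its log2 fold changes were -0.23 (95% interval -0.90 to 0.44), 0.26 (-0.46 to 0.97) and -0.01 (-0.46 to 0.44) for Model VS Normal, TA VS Model and TA VS Normal, and all 3 changed sign with library totals (0.33, -0.16 and 0.17).

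Atf3, a stress-inducible repressor and immediate early gene, varied widely between the livers of each group. Its raw counts were 46, 400 and 48 in normal livers, 789, 112 and 516 in model livers and 87, 191 and 585 in TA livers, or 3.82, 25.8 and 4.03 CPM, 35.4, 7.37 and 36.5 CPM, and 6.19, 16.2 and 43.6 CPM. Each group held a liver near or above 25 CPM and a liver below 8 CPM. The 95% interval of the Model VS Normal log2 fold change (1.23) ran from -0.71 to 3.18 and that of TA VS Model (-0.27) from -2.03 to 1.49.

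Ddit3 encodes CHOP, the transcription factor tied to cell death under lasting ER stress, and it fell in the model group. Its raw counts were 314, 523 and 260 in normal livers, 206, 213 and 189 in model livers and 171, 194 and 303 in TA livers. These correspond to 26.1, 33.7 and 21.8 CPM in normal, 9.25, 14.0 and 13.4 CPM in model and 12.2, 16.4 and 22.6 CPM in TA livers. Every model liver lay below every normal liver, and the TA livers reached from inside the model range into the normal range. The model level was 0.449 of the normal level (95% interval 0.292 to 0.693, log2 fold change -1.15, SE 0.27), with an adjusted p of 0.0427 in edgeR's quasi-likelihood test. The exact permutation test of 3 against 3 gave p = 0.1, the smallest two-sided p it allows. The call depended on single libraries and on scaling. Leaving out any library but the third model liver raised the edgeR adjusted p to between 0.0604 and 0.174. Without the second or the third normal liver, no gene of all those tested had an adjusted call. With library totals the log2 fold change of Ddit3 was -0.58 (edgeR adjusted p = 0.179). For TA VS Model the log2 fold change was 0.49 (95% interval -0.23 to 1.20, edgeR adjusted p = 0.446), and in TA VS Normal it was -0.71 (-1.35 to -0.07, edgeR adjusted p = 0.455) with overlapping groups. The profiles most like that of Ddit3 over the 9 livers were those of Pif1 (Pearson's r = 0.971), Ahsa2 (0.960) and Dnah9 (0.948). Among the stress genes r was 0.819 for Herpud1, 0.726 for Atf4 and 0.461 for Trib3. It was 0.258 for Dnajb9, 0.149 for Pdia4, -0.019 for Hspa5, -0.087 for Hsp90b1, -0.160 for Atf3 and -0.305 for Xbp1.

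Trib3 encodes a pseudokinase that is raised by ATF4 and CHOP and binds AKT, and it had the largest fold change of the 10 genes in TA VS Model. Its raw counts were 67, 275 and 110 in normal livers, 64, 66 and 125 in model livers and 229, 237 and 393 in TA livers. In CPM these were 5.56, 17.7 and 9.23, then 2.87, 4.34 and 8.84, then 16.3, 20.0 and 29.3. All TA livers lay above all model livers, whereas the second normal liver lay above the lowest TA liver. The TA level was 4.12 times the model level (95% interval 1.99 to 8.52, log2 fold change 2.04, SE 0.45). The unadjusted p from edgeR's fit was 0.00208, which placed Trib3 at rank 116 of 12781 genes and left an adjusted p of 0.230. With library totals the log2 fold change was 1.67, and it ran from 1.74 to 2.62 with each library left out in turn. Against the normal control group Trib3 was 1.96 times as high (95% interval 1.01 to 3.82, edgeR adjusted p = 0.517), and in Model VS Normal the log2 fold change was -1.02 (-2.28 to 0.24, edgeR adjusted p = 0.251).

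**Figure D2:**
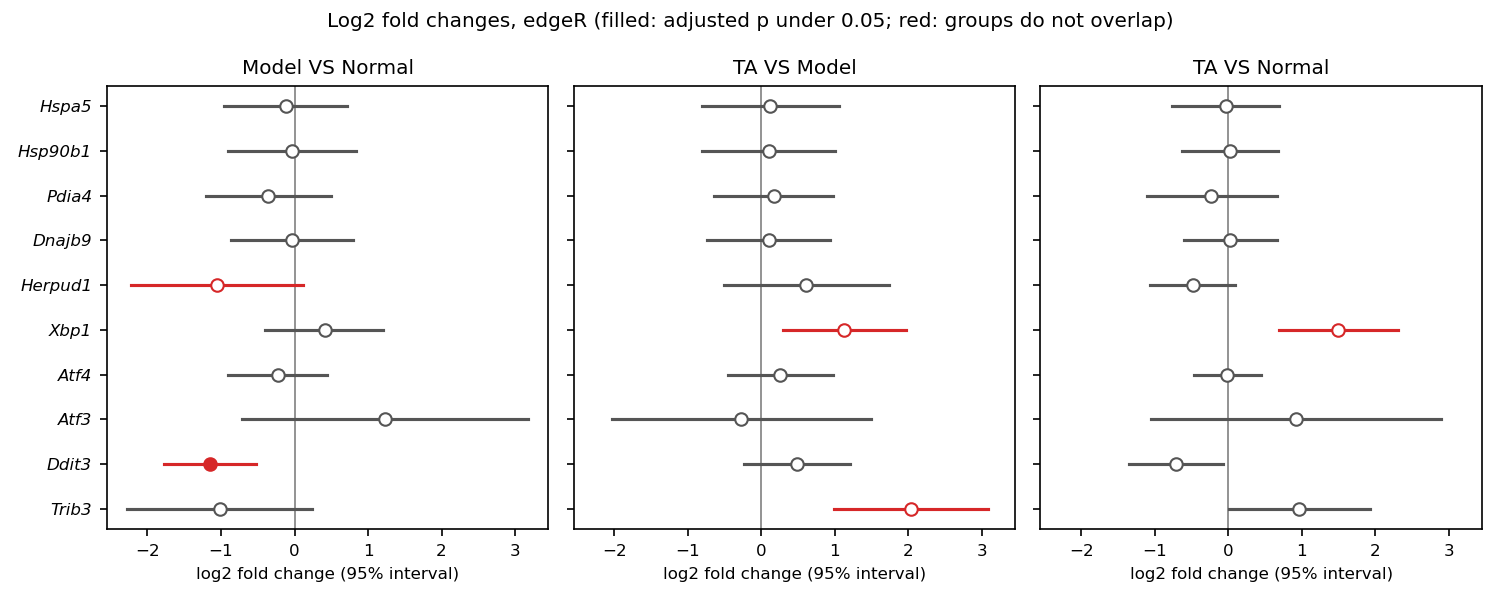
Log2 fold changes of the 10 genes in the 3 comparisons with 95% intervals (edgeR, TMM normalization; filled: adjusted p under 0.05, red: the groups do not overlap). Ddit3 in Model VS Normal (-1.15) is the single filled point, and the intervals of Xbp1 (0.30 to 1.97) and Trib3 (0.99 to 3.09) in TA VS Model lie above 0, while the signs of the 4 chaperone genes and Atf4 in Model VS Normal and TA VS Model turn with library totals.

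Read against all genes, the share of the 10 genes called in Model VS Normal was near the background. There 1 of 10 (Ddit3) had an adjusted p under 0.05 in edgeR's test against 7.87% of the 12730 genes tested. In the lower direction the groups did not overlap for 2 of 10 (Herpud1 and Ddit3) against 17.4% of all genes, and in the higher direction for 0 of 10 against 20.8%. The study's own rule was an unadjusted p under 0.05 and an absolute log2 fold change over 1, with DESeq2. Here its cut-offs are applied to edgeR's test unless DESeq2 is named. By them Ddit3 alone was lower against 5.55% of all genes, and 0 of 10 were higher against 16.6%. With DESeq2 in place of edgeR, 2 of the 10 genes met them. The median log2 fold change of the 10 was -0.18, beside 0.02 over all genes, and with library totals it was 0.40 beside 0.65.

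In TA VS Model 0 of the 10 genes passed the adjusted threshold in edgeR's test, as did 0% of the 12781 genes tested, of which 1999 (15.6%) had an unadjusted p under 0.05. DESeq2 called 541 genes and limma voom with sample quality weights 169, and both included Trib3 (adjusted p = 0.00358 and 0.0462) and Xbp1 (adjusted p = 0.0446 and 0.0462). By the study's cut-offs in edgeR's test 2 of 10 were higher under TA (Xbp1 and Trib3) against 2.11% of all genes, and 0 of 10 were lower against 10.2%. Trib3 alone met them with library totals, without the second model liver and without the first TA liver, since Xbp1 was then at 0.69, 0.99 and 0.99. The groups did not overlap in the higher direction for 2 of 10 genes against 10.3%. The median of the 10 was 0.21 beside 0.00 over all genes (0.10 beside 0.03 without the first model liver), and with library totals -0.22 beside -0.48.

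For TA VS Normal 0 of 10 passed the adjusted threshold in edgeR's test against 0.263% of 12179 genes, while at an unadjusted p under 0.05 there were 2 of 10 higher (Xbp1 and Trib3) against 5.99% and 1 of 10 lower (Ddit3) against 3.44%. By the study's cut-offs in edgeR's test Xbp1 alone was higher, against 4.24% of all genes. DESeq2 and voom each called Xbp1 (adjusted p = 0.00522 and 0.0419). The median of the 10 was 0.01 beside -0.01 over all genes. The groups did not overlap for 1 of 10 in the higher direction (Xbp1) against 9.07%.

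**Figure D3:**
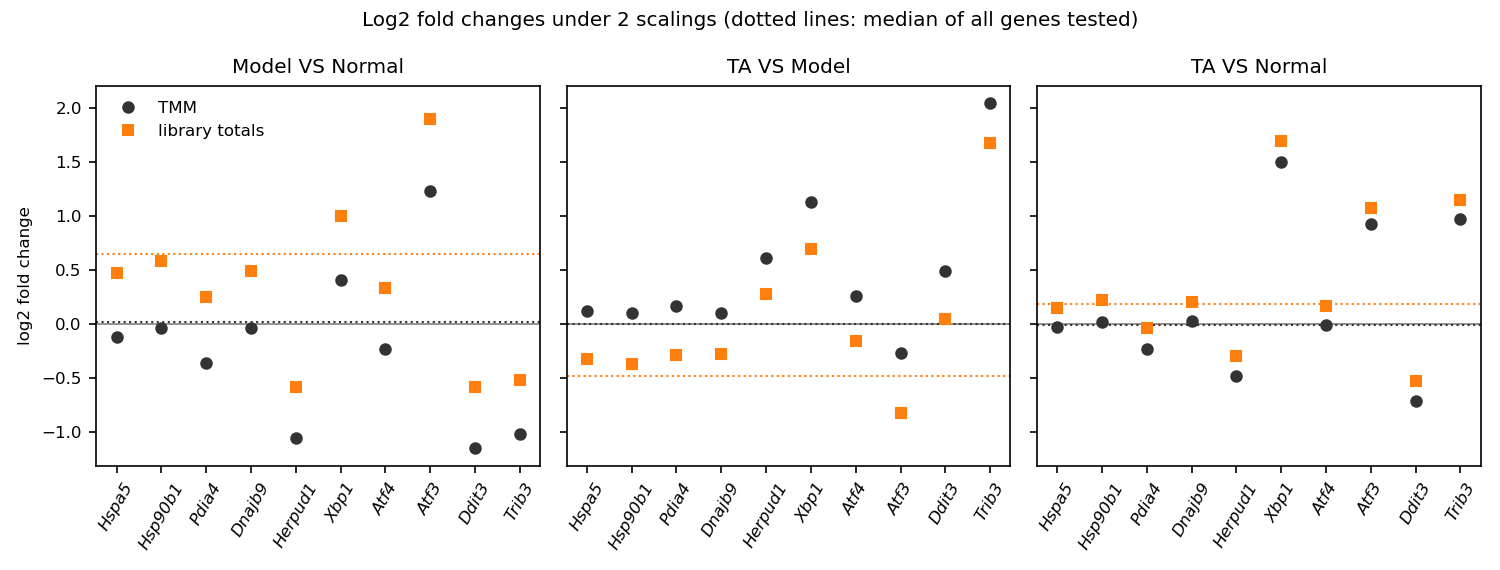
Log2 fold changes of the 10 genes with TMM normalization (black circles) and with library totals (orange squares) in the 3 comparisons, with the median of all genes tested as dotted lines. Hspa5, Hsp90b1, Pdia4, Dnajb9 and Atf4 change sign between the scalings in Model VS Normal and TA VS Model, whereas Herpud1, Xbp1, Atf3, Ddit3 and Trib3 keep theirs.

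Levels of different genes were compared per length, on the FPKM values. In the normal livers the order of mean FPKM was Hspa5 (153), Hsp90b1 (124), Herpud1 (124), Pdia4 (69.1), Atf4 (68.6), Xbp1 (55.1), Ddit3 (24.8), Dnajb9 (10.6), Trib3 (4.73) and Atf3 (3.28). The ranges of neighbours in that order overlapped over the 3 livers except for Ddit3 above Dnajb9. Model livers kept Hspa5 (212) and Hsp90b1 (186) at the top, followed by Xbp1 (110), Atf4 (86.3), Herpud1 (82.7) and Pdia4 (81.9), and placed Trib3 last (3.30). In the TA livers Xbp1 led with a mean of 178 FPKM, above Hspa5 (170) and Hsp90b1 (144), although the ranges of these neighbours overlapped. Among model livers, as among TA livers, of all neighbours only Pdia4 and Ddit3 did not overlap. Within each liver the place of Xbp1 among the 10 genes was 6 in all 3 normal livers, 3, 5 and 4 in the model livers, and 1 in all 3 TA livers. In the third TA liver that first place was close, since Xbp1 and Herpud1 both rounded to 112 FPKM and Hspa5 was at 103. The place of Hspa5 was 1, 2 and 1 in normal, 1 in every model and 2, 2 and 3 in TA livers, which does not depend on the scaling of libraries.

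The other genes of the pathway were taken from lists written by function. The 6 UPR sensors and the proteases that cut ATF6 (Ern1, Eif2ak3, Atf6, Atf6b, Mbtps1 and Mbtps2) had 0 adjusted calls in edgeR's test and 0 at an unadjusted p under 0.05 in each comparison, with medians of 0.21, 0.00 and 0.06 in Model VS Normal, TA VS Model and TA VS Normal (0.86, -0.50 and 0.25 with library totals). Another 23 ER chaperones and folding enzymes had 0 adjusted calls in edgeR's test in any comparison. Of these, 2 had an unadjusted p under 0.05, both lower in Model VS Normal, against 10.2% of all genes in that direction. They were Dnajc3 (p58IPK, an inhibitor of PERK), with a log2 fold change of -0.90 and an edgeR adjusted p of 0.137, and Sil1, a nucleotide exchange factor of BiP, with -0.77 and 0.0843. The median of the 23 was -0.04, 0.02 and -0.11 in the 3 comparisons, and 0.59, -0.50 and 0.08 with library totals, close to the shifts of all genes. Signal peptide and translocon genes likewise gave 0 adjusted calls over 15 genes, with Sec63 at -0.72 for Model VS Normal and 0.64 for TA VS Model (edgeR adjusted p = 0.112 and 0.316), and the 5 eIF2 genes and kinases gave 0 calls at either threshold.

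Genes of ERAD were mostly lower in the model livers and mostly higher in the TA livers with TMM, without an adjusted call in edgeR's test, and with library totals these directions did not hold. Of the 16 tested, 13 had a log2 fold change below 0 in Model VS Normal with a median of -0.36 beside 0.02 over all genes, which with library totals became 4 and 0.22 beside 0.65. In the lower direction 3 had an unadjusted p under 0.05 against 10.2% of all genes, and the groups did not overlap for 6 against 17.4%. In TA VS Model 14 of 16 lay above 0 with a median of 0.39 beside 0.00, against 8 and -0.05 beside -0.48 with library totals, and the groups did not overlap for 5 against 10.3%. The hepatocyte markers moved in the same directions, with 0 of 10 above 0 and a median of -0.91 for Model VS Normal and 9 of 10 and 0.95 for TA VS Model (2 of 10 and -0.45, then 9 of 10 and 0.65, with library totals), and their part in the ERAD values was not tested. Edem1, which hands misfolded glycoproteins to degradation, stood at 75.6, 224 and 32.4 CPM in normal, 23.7, 40.5 and 30.2 CPM in model and 254, 90.4 and 35.6 CPM in TA livers. Its normal and model ranges overlapped, and its log2 fold changes were -1.81 and 2.01 in Model VS Normal and TA VS Model (edgeR adjusted p = 0.113 and 0.264). Derl2, a channel component of ERAD, was at 76.3, 76.0 and 76.3 CPM in normal livers and 29.4, 47.1 and 51.3 CPM in model livers (log2 fold change -0.84, edgeR adjusted p = 0.0880), then at 55.3, 63.4 and 64.1 CPM in TA livers.

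Targets of the integrated stress response did not move one way. Of 25 tested, 5 rose and 2 fell in Model VS Normal at an adjusted p under 0.05 in edgeR's test, against 6.86% higher and 1.01% lower of all genes, and the median was 0.04. Those that rose were Vldlr, a lipoprotein receptor (log2 fold change 4.46, edgeR adjusted p = 0.00871), Phgdh, the first enzyme of serine synthesis (3.54, 0.0145), the arginine transporter Slc7a1 (2.78, 0.0353) and, named after their values were seen, the mitochondrial folate enzyme Mthfd2 (2.66, 0.0287) and the serine synthesis enzyme Psat1 (2.15, 0.0352). Normal livers held few reads of the genes that rose. Counts there were 10, 6 and 7 for Vldlr, 22, 11 and 24 for Phgdh, and 9, 6 and 6 for Slc7a1. They were 13, 14 and 9 for Mthfd2 and 19, 41 and 13 for Psat1. Those that fell were Sesn2, an inhibitor of mTORC1 signaling (-1.77, edgeR adjusted p = 0.0283), and Cebpb, a transcription factor of hepatocytes (-1.60, 0.0398, and with library totals -0.99, 0.0833). Without the first model liver, Slc7a1 and Psat1 were no longer called (edgeR adjusted p = 0.0573 and 0.0569). Phgdh stood at 1.83, 0.708 and 2.01 CPM in normal, 18.8, 24.7 and 8.77 CPM in model and 2.99, 5.08 and 1.79 CPM in TA livers. Sesn2 stood at 84.7, 76.0 and 142 CPM, 23.7, 24.9 and 40.0 CPM, and 59.2, 57.0 and 75.0 CPM in the same order. For both genes the model livers lay outside the other groups, Phgdh above and Sesn2 below. For TA VS Model 4 of 25 had an unadjusted p under 0.05 in the higher direction, against 4.17% of all genes, and 6 in the lower, against 11.5%, with 0 adjusted calls in edgeR's test. The 4 higher, named after their values were seen, had the sign of Trib3. They were Sesn2 (1.11), Cebpb (1.08), Ppp1r15b (0.98) and Shmt2 (0.82). Phgdh (-2.41, edgeR adjusted p = 0.230) and Ddit4 (-2.23, edgeR adjusted p = 0.271), another inhibitor of mTORC1, had the lowest values of the list, opposite in sign to Trib3. Ddit4 rested in part on the first model liver, without which it was at -0.95.

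**Figure D4:**
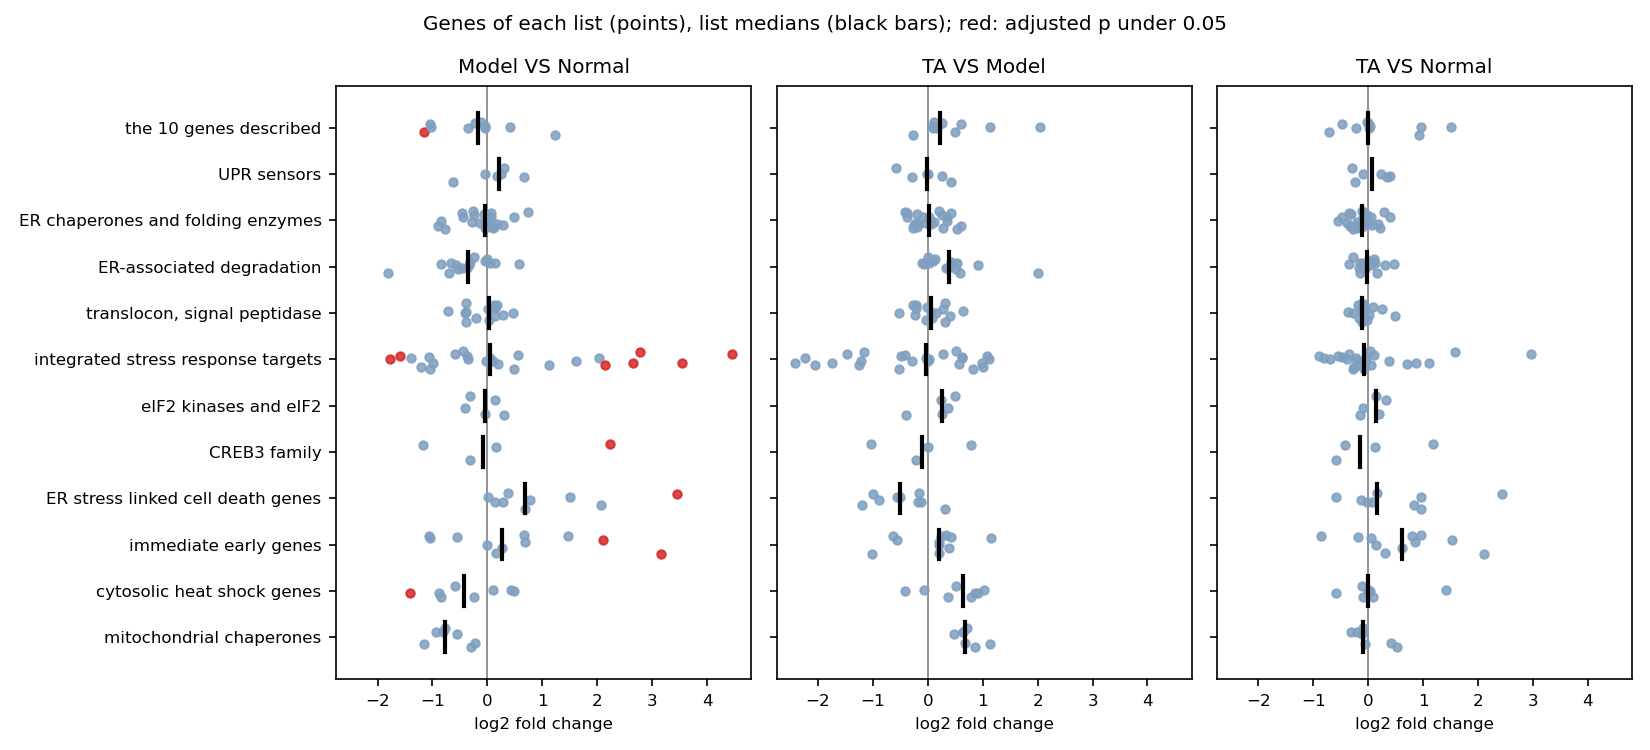
Log2 fold changes of every tested gene of each list in the 3 comparisons (points), with list medians as black bars and adjusted p under 0.05 in red (edgeR, TMM normalization). The ER-associated degradation genes have a median of -0.36 for Model VS Normal and 0.39 for TA VS Model, red points occur in Model VS Normal alone, and library totals shift the middle of all genes to 0.65 and -0.48 in these comparisons.

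The 12 genes of these lists with an adjusted call in Model VS Normal, those above and those below, all lost it when the second or the third normal liver was left out, at edgeR adjusted p-values from 0.0703 to 0.172. No gene of all those tested had an adjusted call in these fits, so the loss is not particular to the 12.

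Neighbouring stress lists were described in the same way. Among 9 cell death genes linked to ER stress, all 9 lay above 0 in Model VS Normal (6486 of the 12730 genes tested did) with a median of 0.68 beside 0.02 over all genes (6 of 9 and 0.15 without the first model liver). Of the 9, 1 was called higher against 6.86%, Casp12, a caspase of the ER membrane (log2 fold change 3.46, edgeR adjusted p = 0.0241). It stood at 0.830, 1.80 and 0.588 CPM in normal, 9.29, 21.2 and 5.73 CPM in model and 6.27, 8.63 and 3.36 CPM in TA livers. This was opposite in sign to Ddit3 in the same livers. Of 4 tested ER membrane transcription factors of the CREB3 family, 2 lay above 0 in Model VS Normal, with a median of -0.08 beside 0.02 over all genes. Creb3l3, named after its values were seen, was at -1.17 (edgeR adjusted p = 0.245, groups not overlapping). Only 1 of the 4 was called higher, against 6.86% of all genes. This was Creb3l1, an ER-anchored factor that drives collagen genes in secretory and stromal cells. Creb3l1 rose by 2.24 on the log2 scale in Model VS Normal (edgeR adjusted p = 0.0400), from 5.23, 3.35 and 3.78 CPM to 35.1, 12.3 and 10.6 CPM. It was highest in the first model liver, without which its log2 fold change was 1.46 (edgeR adjusted p = 0.0332), and where the stellate cell and myofibroblast markers were highest too (13000 CPM), and the part of those cells in its level was not tested. Of 11 immediate early genes, 2 rose in the model group against 6.86% of all genes, Fos (2.11, edgeR adjusted p = 0.0278) and Fosb (3.16, 0.0198), beside Atf3 whose groups overlapped. Fosb had counts of only 8, 11 and 10 in the normal livers. Others of the list lay lower, named after their values were seen, with Ier3 at -1.07 (edgeR adjusted p = 0.0594, groups not overlapping), Dusp1 at -1.05 and Zfp36 at -0.56. Of 7 mitochondrial chaperones and proteases, 7 lay below 0 for Model VS Normal with a median of -0.77 beside 0.02 over all genes, and 7 above 0 for TA VS Model with a median of 0.68 beside 0.00. None had an adjusted call in edgeR's test, and at an unadjusted p under 0.05 there were 4 lower in the first comparison against 10.2% of all genes and 3 higher in the second against 4.17%. The hepatocyte marker medians given above (-0.91 and 0.95) had the same signs, and their part in these values was not tested. With library totals the Model VS Normal median was -0.20, with 3 of 7 above 0, and the TA VS Model median was 0.30. Dnaja3, a mitochondrial Hsp40 co-chaperone, gave -1.15 and 1.13 in these comparisons. Of 8 cytosolic heat shock genes, 1 was called in Model VS Normal against 7.87% of all genes (1.01% lower), Hspa8, which was lower in the model livers (-1.40, edgeR adjusted p = 0.0460, and with library totals 0.0860) but has near-identical copies in the genome, among which the counting may divide reads.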

How the data were processed

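The authors sequenced poly(A)-selected RNA of 9 rat livers as paired reads. They trimmed the reads with Trimmomatic and Cutadapt, mapped them with STAR and deposited raw read counts per gene made with HTSeq-count, in a table of 16938 genes (normal and model) and a table of 16948 genes (TA and model). The 16730 shared genes carry equal model counts in both, and TA VS Normal used these genes. The study's methods name a human genome and the processing notes a mouse build, while the symbols are rat symbols, so that no coordinates of counted genes are given. Use of strand in counting is not given in the sources used here. The FPKM values deposited by the authors were used to compare levels between genes. Deposited columns of DESeq2-normalized values, log2 fold changes and p-values from the authors' own comparisons were not used.

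Counts were tested with edgeR 4.0.16 (quasi-likelihood test, default form, TMM, filterByExpr, libraries of the compared groups) in R 4.3.3, with Benjamini-Hochberg adjustment over all genes tested. Intervals cover 95%, and CPM on the log2 scale used a prior count of 2. Groups called not overlapping were read from CPM normalized over all 9 libraries. The test was checked on simulated data. Alternatives were DESeq2 1.42.0, limma 3.58.1 voom, other scalings, filters and forms of the fit, 9 libraries in 1 fit, a replicate block, and each library left out. The replicate numbers come from the library titles. Deviations of same-numbered livers from their group means correlated at 0.256, 0.424 and 0.498 in TA VS Normal. They correlated at 0.211, -0.057 and -0.052 in Model VS Normal and at 0.219, -0.035 and 0.007 in TA VS Model. A pairing was thus read in TA VS Normal only, from these same data. The titles do not state one, and the reported tests used no block.

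The 10 genes and the lists were chosen with earlier results of these data known. Beside the 10 genes, those named from a list were its adjusted calls if at most 6, otherwise the 3 largest rises and falls, and without a call the 2 largest changes at an unadjusted p under 0.05. The 3 genes most like Hspa5 and Ddit3 were taken by Pearson's r.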

Additional observations from a re-analysis of the deposited data

How the results depend on the processing

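With 16 alternatives per comparison, 11, 16 and 17 of the fold changes of the 10 genes turned sign in Model VS Normal, TA VS Model and TA VS Normal, and 142, 140 and 140 kept their direction and side of the threshold. With library totals, the Model VS Normal values of Hspa5, Hsp90b1, Pdia4, Dnajb9 and Atf4 became 0.47, 0.58, 0.25, 0.49 and 0.33, those of TA VS Model became -0.32, -0.37, -0.29, -0.28 and -0.16, and in TA VS Normal Hspa5 became 0.15 and Atf4 0.17. Voom turned Dnajb9 to 0.08, -0.06 and -0.02, and the fit of all 9 libraries turned Atf4 to 0.02 in TA VS Normal.

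With each library left out, Model VS Normal ran from -0.33 to 0.09 for Hspa5, -0.26 to 0.12 for Hsp90b1 and -0.25 to 0.24 for Dnajb9. TA VS Model ran from -0.01 to 0.38 for Hspa5, -0.08 to 0.30 for Hsp90b1, -0.02 to 0.44 for Pdia4, -0.19 to 0.28 for Dnajb9 and -1.23 to 0.19 for Atf3. TA VS Normal ran from -0.21 to 0.22 for Hspa5, -0.17 to 0.22 for Hsp90b1, -0.51 to 0.10 for Pdia4, -0.19 to 0.21 for Dnajb9, -0.12 to 0.09 for Atf4 and -0.05 to 2.45 for Atf3.

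Over all genes, the adjusted calls of Model VS Normal were 1002 in the reported test, 2654 with DESeq2, 3433 with voom, 1980 with library totals, 1757 with all 9 libraries and 0 to 2537 with a library left out, the 0 being without the second or the third normal liver, where edgeR gave 2727 and 3119 genes at an unadjusted p under 0.05. In TA VS Model 0 genes became 541 with DESeq2, 169 with voom and 0 to 1 with a library left out. In TA VS Normal 32 became 360 with DESeq2, 126 with voom, 56 with library totals, 76 without a filter, 14 with all 9 libraries, 203 with the replicate block and 1 to 61 with a library left out.

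Of the 10 genes, the adjusted calls of Model VS Normal went from 1 to 2 with voom (Herpud1 added, adjusted p = 0.0459), 0 with library totals and 0 to 1 with a library left out. In TA VS Model they went from 0 to 2 with DESeq2 and 2 with voom, and in TA VS Normal from 0 to 1 with DESeq2, 1 with voom and 1 with the replicate block. By the study's cut-offs (unadjusted p under 0.05, absolute log2 fold change over 1), Model VS Normal gave 2 with DESeq2, 2 with all 9 libraries, 2 with the replicate block and 1 to 3 with a library left out, against 1 in the reported edgeR test. TA VS Model gave 1 with library totals and 1 to 3 with a library left out, against 2. TA VS Normal gave 2 with library totals, 2 with the replicate block and 1 to 3 with a library left out, against 1. The block changed no other adjusted call of the 10. The median of the 10 in Model VS Normal moved to 0.40 with library totals, and that of TA VS Model moved to 0.12 with voom, -0.22 with library totals and 0.10 to 0.34 with a library left out. The cause of these changes was not tested. Counts of Atf3 and Trib3 were under 150 in several livers, where counting error adds to the spread.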
